A study of Mus musculus with 4 samples.

Results

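Of 20906 condensed genes counted in mouse gut, 4 are described here. 2210415F13Rik, 1810065E05Rik and 1810030J14Rik carry the names of cDNA clones, and the fourth is Hao2. They were chosen by mm9 symbol because they were among the highest or most colon-biased genes of the cDNA fragmented pair of libraries, so their values in that pair are a description of the choice. Tissue came from C57BL/6 mice aged 9 to 10 weeks, untreated as far as the labels say, and was frozen whole, so epithelium, muscle and immune cells were sequenced together. The study names jejunum and distal colon and describes both tissues as taken from the same mice, while the mice behind each single library are not given in the sources used here. Small intestine and colon were each sequenced as 1 cDNA fragmented library, made from polyadenylated RNA by SMART cDNA synthesis, and as 1 ribosomal RNA-depleted library, made with the SOLiD Whole Transcriptome Analysis Kit, which keeps the strand. The study's methods describe libraries made with such a kit from polyadenylated RNA, and the labels call these ribosomal RNA-depleted. Their read totals differ from those of the study's RNA fragmented data, and whether they are the same experiment is not settled, so the labels' name is used here. With 1 library per tissue and protocol there is no replicate error within a protocol, and no test between tissues was run. Intervals are at the 95% level and hold the error of counting alone, as reads of amplified fragments are not separate molecules. In total tissue, a lower share of a cell type and less RNA per cell cannot be told apart.

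The clone names have since been replaced for a pair of these genes in RefSeq. 2210415F13Rik is now Lypd8, which encodes a glycosylated, membrane-anchored protein of the LY6/PLAUR domain family that is shed into the colonic lumen and binds flagellated bacteria. 1810030J14Rik is now Mptx1, mucosal pentraxin 1, a relative of the acute phase proteins C-reactive protein and serum amyloid P, which form rings and bind ligands in a calcium-dependent way. 1810065E05Rik still has its clone name. Hao2 encodes a peroxisomal flavin enzyme that oxidises 2-hydroxy fatty acids and is known mainly from kidney and liver.

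In mm9, 2210415F13Rik lies at chr11:58192534-58204043 on the plus strand and has 7 exon blocks of 1108 bases in all. 1810065E05Rik follows it on the same strand after a gap of 30570 bases, at chr11:58234613-58239525, with 6 exon blocks of 925 bases. 1810030J14Rik lies at chr1:176260650-176263004 on the plus strand, with 2 exon blocks of 798 bases. Hao2 lies at chr3:98678442-98697153 on the minus strand, with 9 exon blocks of 2042 bases. The coding sequences of the chr11 neighbours, of 768 and 708 bases in GENCODE M1, aligned over 634 bases with 71.3% identity. Hao2 and its paralog Hao1 aligned at 70.9% over 989 bases, and 1810030J14Rik aligned at 76.0% with Crp, the gene of C-reactive protein, and at 71.9% with Apcs, that of serum amyloid P.

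The 120 bases before the first deposited exon of each gene are shown because all 4 genes were high in the same tissue. They are given 5′ to 3′ on the gene's strand in mm9, and capitals mark TATAAA or TATATAA, letters of the TATA box, searched on the gene's strand only. The windows are chr11:58192414-58192533, chr11:58234493-58234612, chr1:176260530-176260649 and, on the minus strand, chr3:98697154-98697273.
2210415F13Rik: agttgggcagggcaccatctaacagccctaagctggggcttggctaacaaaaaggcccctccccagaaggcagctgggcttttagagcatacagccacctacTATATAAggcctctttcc
1810065E05Rik: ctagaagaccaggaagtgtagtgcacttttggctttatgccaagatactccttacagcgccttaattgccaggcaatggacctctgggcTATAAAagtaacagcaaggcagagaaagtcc
1810030J14Rik: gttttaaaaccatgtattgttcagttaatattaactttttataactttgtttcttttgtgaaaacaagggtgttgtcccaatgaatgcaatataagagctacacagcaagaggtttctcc
Hao2: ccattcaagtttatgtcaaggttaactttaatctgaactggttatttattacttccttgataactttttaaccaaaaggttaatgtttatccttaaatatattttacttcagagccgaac

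The TATA letters stood 18 bases before the first exon in 2210415F13Rik and 31 bases before it in 1810065E05Rik, and they were found in 5.69% of 20733 windows of the same length. TTTATG or TTTATT on either strand, letters of the core bound by CDX factors, occurred in the windows of 1810065E05Rik, 87 bases before the exon, and of Hao2, 111 and 76 bases before it. These letters were found in 9.79% of all windows. AGATAA or TGATAA on either strand, letters of the GATA core, occurred 63 bases before the exon of Hao2 and in 6.18% of all windows. In the window of 1810030J14Rik none of these letters was found, which says only that these letters are not in this window.

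2210415F13Rik was the highest of the 4 genes in every library. In the cDNA fragmented libraries it had 96237 reads in small intestine and 455508 in colon, and in the ribosomal RNA-depleted libraries 2358 and 24357. As RPKM, the reads per kilobase of exon scaled to 1e+06 uniquely placed reads, the level was 3863 in small intestine and 16578 in colon by cDNA fragmentation, and 1046 (Poisson interval 1004 to 1089) and 6320 (6241 to 6400) after ribosomal RNA depletion. The gene was thus abundant in both tissues, ranking 21st in small intestine and 3rd in colon of the cDNA fragmented libraries by RPKM. In colon it took 1.84% of all uniquely placed reads of the cDNA fragmented library and 0.700% of those of the ribosomal RNA-depleted library.

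1810065E05Rik had 496 reads in small intestine and 148762 in colon in the cDNA fragmented pair, and 21 and 2180 in the ribosomal RNA-depleted pair. Its levels were 23.8 RPKM (21.8 to 26.0) against 6485 RPKM (6452 to 6518), and 11.2 RPKM (6.90 to 17.1) against 678 RPKM (649 to 707). It ranked 10th in colon by cDNA fragmentation and 73rd after ribosomal RNA depletion. Small intestine was low in both protocols, unlike for its neighbour 2210415F13Rik.

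Hao2 had 30 reads in small intestine and 31494 in colon in the cDNA fragmented pair, and 9 and 2245 in the ribosomal RNA-depleted pair. The levels were 0.653 RPKM (0.441 to 0.933) against 622 RPKM (615 to 629), and 2.17 RPKM (0.990 to 4.11) against 316 RPKM (303 to 329). Of the 4 genes it was the lowest in every library, yet in colon it still ranked 181st and 197th. The 9 small intestine reads of the ribosomal RNA-depleted library came from 5 start points, so this level rests on very few fragments.

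1810030J14Rik had 40030 reads in small intestine and 285181 in colon in the cDNA fragmented pair, and 191 and 16995 in the ribosomal RNA-depleted pair. Taken as deposited, the levels were 2231 RPKM against 14411 RPKM, and 118 RPKM (102 to 136) against 6123 RPKM (6031 to 6215). The small intestine values stood far apart between protocols: the cDNA value was 19.0 times (16.5 to 22.0) the ribosomal RNA-depleted one, while in colon the same quotient was 2.35. For 2210415F13Rik the quotients were 3.69 (small intestine) and 2.62 (colon), for 1810065E05Rik 2.14 (1.38 to 3.49) and 9.57, and for Hao2 0.302 (0.140 to 0.723) and 1.97. Over 5825 genes with at least 100 reads in both colon libraries the median quotient was 0.522, with the 5th and 95th percentiles at 0.117 and 3.72. In colon only 1810065E05Rik of the 4 genes lay outside this range. Over 3557 such genes in small intestine the median was 0.555, with the same percentiles at 0.0910 and 3.74. There 1810030J14Rik, with all reads placed on it, lay outside the range, and 2210415F13Rik lay just inside it. Only 115 of the 40030 small intestine cDNA reads of 1810030J14Rik matched it better than a near copy, Gm11062. After ribosomal RNA depletion 63 of 191 did. The quotient of 19.0 is thus not that of its own transcript with any certainty.

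**Figure D1:**
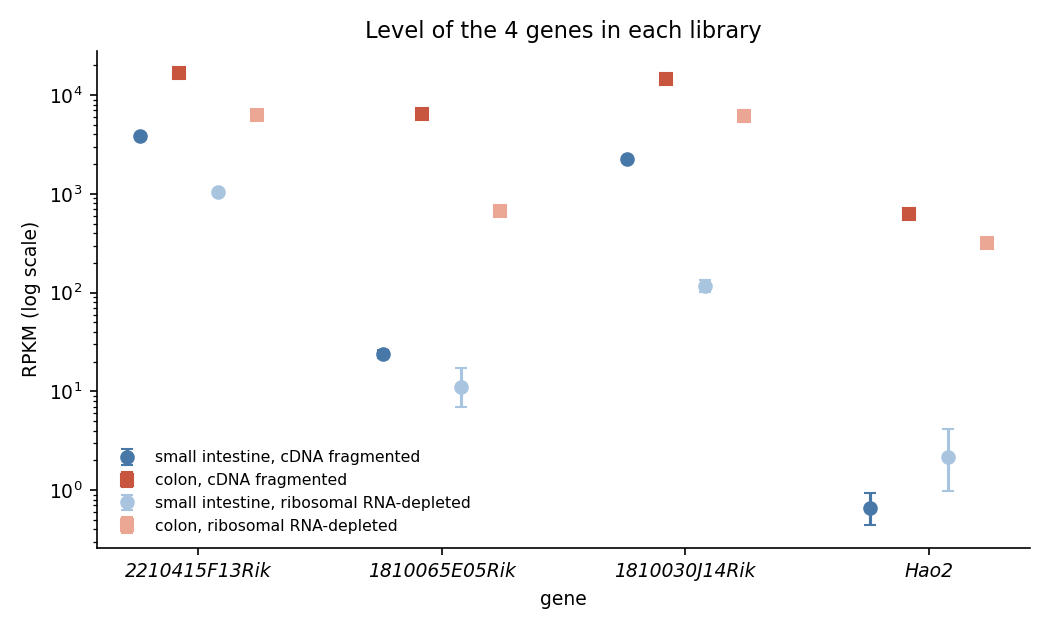
RPKM on a log scale (vertical axis) of the 4 genes (horizontal axis) in the 4 libraries, 1 point per library, with exact Poisson intervals as bars where they exceed the symbol. Colon libraries (squares) lie above the small intestine libraries (circles) of the same protocol for each gene, from 3863 against 16578 RPKM in 2210415F13Rik to 0.653 against 622 RPKM in Hao2.

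Taken over all reads placed, the order of levels was 2210415F13Rik, 1810030J14Rik, 1810065E05Rik and Hao2 in each of the 4 libraries. The place of 1810030J14Rik in the small intestine cDNA fragmented library is not that of its own transcript with any certainty, since only 115 of its 40030 reads there matched it better than a near copy, Gm11062. Neighbours in this order were closest in colon after ribosomal RNA depletion, where 2210415F13Rik exceeded 1810030J14Rik by a factor of 1.03 (1.01 to 1.05) per length. The interval holds counting error alone, and replicate error is unknown. The same factor was 1.15 in colon by cDNA fragmentation, and the other steps in this order were at least 1.73 in each library.

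The colon to small intestine ratio, taken on RPKM, was 4.29 (4.26 to 4.32) for 2210415F13Rik, 6.46 (6.39 to 6.53) for 1810030J14Rik, 272 (249 to 298) for 1810065E05Rik and 952 (667 to 1411) for Hao2 in the cDNA fragmented pair. The ribosomal RNA-depleted pair did not enter the choice of the genes, and there the ratios were 6.04 (5.79 to 6.31), 52.1 (45.1 to 60.4), 60.7 (39.6 to 98.3) and 146 (76.8 to 320) in the same order. Over all reads placed, the ratio was larger in this pair for 2210415F13Rik and 1810030J14Rik. For 1810065E05Rik and Hao2 it was smaller than in the cDNA fragmented pair. Reads that matched 1810030J14Rik better than its near copy Gm11062 gave 1837 in the cDNA fragmented pair and 111 in this one. The direction for 1810030J14Rik thus depends on which reads are counted. The intervals hold counting error alone.

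The 4 genes had a median log2 ratio of 5.36 in the cDNA fragmented pair and 5.75 in the other, beside 0.14 and 0.26 over all genes with a read. The median of the cDNA fragmented pair describes their choice, and both medians take 1810030J14Rik with all reads placed on it. By the 3-fold rule of the study's methods, applied here to RPKM, in which the value of one tissue is divided by that of the other plus a penalty of 1, all 4 genes were higher in colon in the ribosomal RNA-depleted pair. Of 16216 genes with a read in this pair, 996 (6.14%) passed the rule in this direction and 580 (3.58%) in the direction of small intestine. In the cDNA fragmented pair 528 of 17247 genes (3.06%) passed it towards colon and 449 (2.6%) towards small intestine, and the 4 genes are among the former by their choice. Scaling by the median ratio of genes in place of the library total lowered all log2 ratios by 0.33 in the cDNA fragmented pair and by 0.24 in the other. The calls then split as 380 towards colon and 554 towards small intestine in the cDNA fragmented pair, and as 727 and 718 in the ribosomal RNA-depleted pair. By the penalised ratio over all reads placed, Hao2 ranked 4th of all genes in both pairs and 1810065E05Rik 6th and 17th. 1810030J14Rik ranked 181st and 18th, and 2210415F13Rik 287th and 263rd.

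**Figure D2:**
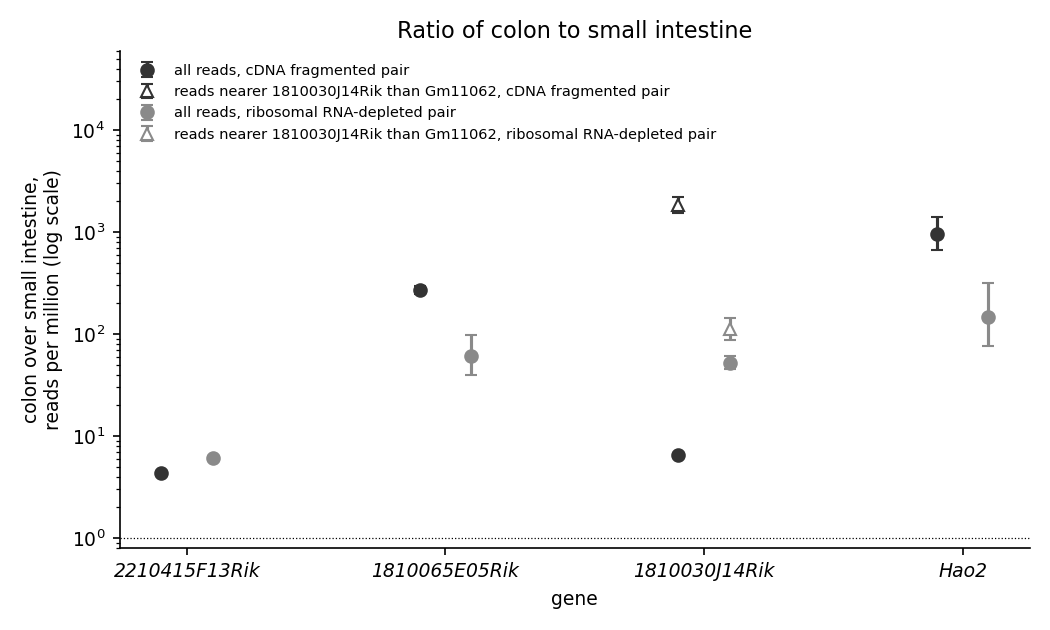
Ratio of RPKM in colon over small intestine (vertical axis, log scale) for each gene (horizontal axis) in the cDNA fragmented pair (dark) and the ribosomal RNA-depleted pair (grey), with 95% counting intervals. Filled circles use all reads, and open triangles use only the reads of 1810030J14Rik that match it better than its near copy Gm11062, for which the ratio rises from 6.46 to 1837 and from 52.1 to 111.

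Genes that mark each tissue give a scale for the low small intestine values. Car1, a carbonic anhydrase of colonocytes, had no read in the small intestine cDNA fragmented library (a count of 0 allows up to 3 reads) and 1619874 in that of colon, but 68 reads (26.8 RPKM) and 25678 reads (5915 RPKM) in the ribosomal RNA-depleted ones. Slc2a2, a hexose transporter of enterocytes, had 9413 reads in small intestine and 3 in colon by cDNA fragmentation, and 1019 and 17 after ribosomal RNA depletion. Over the whole lists, 5 of 8 colonocyte genes had a higher RPKM in the ribosomal RNA-depleted than in the cDNA fragmented library of small intestine and 3 a lower one, with sums of 126 and 395 RPKM. Of all genes with a read in either small intestine library, 56.3% were higher after ribosomal RNA depletion. In colon, 10 of 11 enterocyte genes were higher after ribosomal RNA depletion, beside 60.0% of all genes, but the sum was lower (623 against 4514 RPKM), since Fabp2, a fatty acid binding protein, had 4441 RPKM by cDNA fragmentation and 403 RPKM in the other. Hao2 was higher in the depleted small intestine library and 1810065E05Rik lower (11.2 against 23.8 RPKM). The part of such RNA in the smaller ratios of 1810065E05Rik and Hao2 was not tested.

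Counts for markers of other cells stand beside the shares of all genes past the rule, 3.06% towards colon and 2.6% towards small intestine in the cDNA fragmented pair and 6.14% and 3.58% in the other, and 1 or 2 genes of a short list say little. Of 7 smooth muscle genes, 6 passed the 3-fold rule towards colon in each pair, with summed levels of 425 RPKM in small intestine against 1674 in colon by cDNA fragmentation and 289 against 2668 after ribosomal RNA depletion. Of 13 pancreatic acinar genes, 12 passed it towards colon in the cDNA fragmented pair (20.9 against 1154 RPKM summed) and 11 towards small intestine in the ribosomal RNA-depleted pair (3875 against 303 RPKM), with Amy2a5 at 0 in all 4 libraries. Of 6 goblet cell genes found, 1 and 2 passed towards colon, with sums of 16363 against 38336 and 4544 against 10535 RPKM. Of 8 colonocyte genes, 7 and 8 passed towards colon, and 11 of 11 genes of small intestinal enterocytes passed towards small intestine in both pairs. Leukocyte genes summed to 1914 against 255 and 1596 against 348 RPKM, with 3 and 1 of 6 past the rule towards small intestine. Most of these sums was Cd74, of antigen presentation (1781 against 140 and 1556 against 292 RPKM), whereas Lyz2, a lysozyme, had 80.9 against 98.6 RPKM in the cDNA fragmented pair and 28 against 132 reads in the other. General epithelial genes summed to 9496 against 4859 RPKM in the cDNA fragmented pair and to 4183 against 6154 RPKM in the other, with 1 of 7 past the rule towards colon and 2 towards small intestine in each. Kidney tubule genes, listed because Hao2 is known from kidney, summed to at most 0.976 RPKM in any library, with Kap and Aqp2 at 0 throughout. Hepatocyte genes summed to 52.9 against 191 RPKM and 14.4 against 53.6 RPKM, led by Trf, Ttr and Cyp2e1, with 2 (Ttr and Cyp2e1) and 1 (Ttr) of 7 past the rule towards colon, while Alb, the gene of albumin, reached at most 0.422 RPKM and Fgb was at 0. The part of these cell types in the ratios was not tested.

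The small intestine reads of 1810030J14Rik had more mismatches than those of most genes. A SOLiD read is matched as 35 colors, where a color stands for a step between adjacent bases, and up to 3 mismatches were allowed in the deposited matching. In the cDNA fragmented libraries 38.6% of its small intestine reads (38.1% to 39.1%) had at most 1 mismatch, against 62.9% in colon. In the ribosomal RNA-depleted libraries the shares were 40.3% (33.6% to 47.4%) and 71.6%. The other 3 genes had 64.3%, 64.3% and 70.0% in the small intestine cDNA fragmented library, and only 2.39% of 9527 genes with at least 100 reads lay below 1810030J14Rik there. The median of these genes was 61.8%. After ribosomal RNA depletion 1.16% of 3716 such genes lay below it in small intestine. There 2210415F13Rik had 69.0%, while 1810065E05Rik with 57.1% (36.5% to 75.5%) and Hao2 with 44.4% (18.9% to 73.3%) had too few reads to be told from it.

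A near copy of this gene lies on the same chromosome. This is Gm11062, now named Mptx2 in RefSeq, annotated by GENCODE M1 on the minus strand of chr1. Its stretches at chr1:175207790-175207907 and chr1:175204513-175205187 match the first and second exon block of 1810030J14Rik at 99.2% and 91.7% identity, and the coding sequences are 92.4% identical. The exon blocks that the reads were matched to do not cover the copy. Each of the 730 start positions of 1810030J14Rik was unique among those exon blocks within 3 colors, as were the 870, 721 and 1736 of 2210415F13Rik, 1810065E05Rik and Hao2.

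A stretch of 100 bases within the coding part of the second exon block is shown with its counterpart, because it lets the copies be told apart. It was chosen as the stretch whose first 80 bases held the most left ends of small intestine cDNA fragmented reads nearer Gm11062. It lies at chr1:176262547-176262646 on the plus strand for 1810030J14Rik and at chr1:175204866-175204965 on the minus strand for Gm11062, both in mm9 and 5′ to 3′. Capitals mark the bases that differ, and 93 of 100 are identical. Among reads with their left end in the first 80 bases of this stretch, small intestine had 7486 nearer Gm11062 and 15 nearer 1810030J14Rik by cDNA fragmentation, and colon 12 and 21350. Another 3852 in small intestine and 10942 in colon were equally near both. After ribosomal RNA depletion small intestine had 21 nearer Gm11062, 4 nearer 1810030J14Rik and 4 equally near, and colon had 352 nearer 1810030J14Rik and 103 equally near.
1810030J14Rik: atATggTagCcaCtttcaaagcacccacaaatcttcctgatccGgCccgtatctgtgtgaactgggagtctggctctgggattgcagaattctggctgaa
Gm11062: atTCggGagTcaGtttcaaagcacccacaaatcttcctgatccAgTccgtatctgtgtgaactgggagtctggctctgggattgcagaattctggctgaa

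The sequences before the first exons, at chr1:176260530-176260649 and on the minus strand at chr1:175207908-175208027, are set beside each other because the share of reads nearer each copy differed between the tissues. They are identical at 109 of 119 aligned bases, and capitals mark bases that differ or face a gap.
1810030J14Rik: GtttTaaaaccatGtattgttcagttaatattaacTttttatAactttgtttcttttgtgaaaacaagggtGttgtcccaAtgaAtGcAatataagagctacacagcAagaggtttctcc
Gm11062: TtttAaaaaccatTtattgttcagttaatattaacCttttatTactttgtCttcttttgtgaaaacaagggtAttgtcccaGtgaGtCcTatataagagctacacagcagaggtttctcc

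Each read placed on 1810030J14Rik was compared in color space with both copies. In the small intestine cDNA fragmented library 115 reads (0.287%) matched 1810030J14Rik with fewer mismatches, 19027 (47.5%) matched Gm11062 with fewer, and 20888 matched both equally. In colon the numbers were 233013 (81.7%), 129 (0.0452%) and 52039. Among reads that tell the copies apart, 99.4% (99.3% to 99.5%) were thus nearer Gm11062 in small intestine and 0.0553% (0.0466% to 0.0657%) in colon. The tissues were almost opposite at this pair of copies in the cDNA fragmented libraries.

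In the ribosomal RNA-depleted libraries the small intestine had 63 reads nearer 1810030J14Rik, 48 nearer Gm11062 and 80 equal. Of the reads that tell the copies apart, 43.2% (34.4% to 52.5%) were nearer Gm11062. The 63 and 48 reads came from 28 start points each, so this share rests on few places and its interval treats reads as separate. In colon 12003 were nearer 1810030J14Rik, 16 nearer Gm11062 and 4976 equal, which gives 0.133% (0.0820% to 0.216%). Small intestine was again the tissue with more reads of the copy. Over the whole gene the mixture there was more even than in the cDNA fragmented library. Reads of Gm11062 are held only where the copies are nearly identical, so the shares of both small intestine libraries lean towards 1810030J14Rik. In the ribosomal RNA-depleted library of small intestine, the stretch shown above had 21 reads nearer Gm11062 and 4 nearer 1810030J14Rik. That stretch was chosen for small intestine cDNA fragmented reads nearer Gm11062, so it does not give the mixture of the whole gene. This ribosomal RNA-depleted library also held 68 reads of Car1. Of the 8 colonocyte genes, 5 were higher in it than in the cDNA fragmented library and 3 lower, with sums of 126 and 395 RPKM. The part of such RNA in the mixture was not tested.

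Counted over reads nearer 1810030J14Rik only, colon exceeded small intestine 1837-fold (1530 to 2225) in the cDNA fragmented pair and 111-fold (87.1 to 145) in the ribosomal RNA-depleted pair. If the reads equally near both copies are kept as well, the ratios were 12.3 and 69.5. Reads nearer Gm11062 were higher in small intestine by a factor of 163 (137 to 195) in the cDNA fragmented pair and 5.13 (2.86 to 9.67) in the other. This comparison was added after the data had been seen. The level of Gm11062 itself cannot be given, since its reads are held only where the copies are nearly identical. Of the small intestine cDNA reads, 99.9% began where the copies differ by at most 6 colors, against 63.6% of the colon reads.

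**Figure D3:**
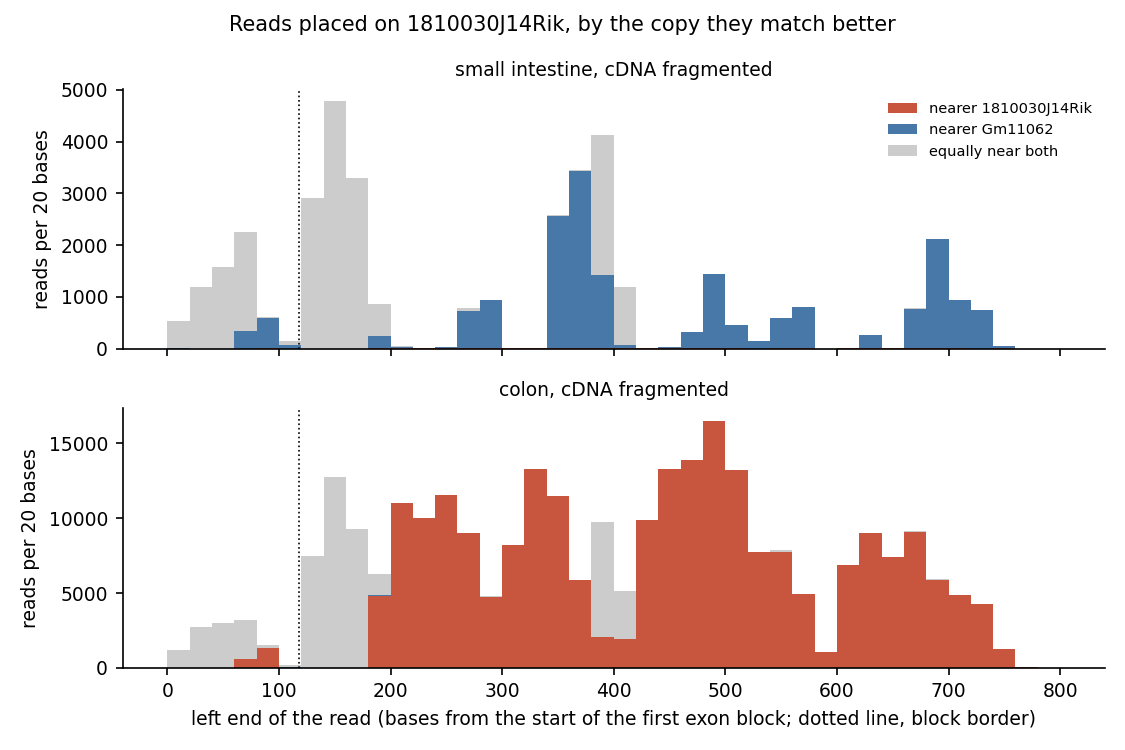
Reads per 20 bases (vertical axes) by the left end of the read along the 2 exon blocks of 1810030J14Rik (horizontal axis, bases), in the cDNA fragmented libraries of small intestine (top) and colon (bottom), coloured by the copy they match with fewer mismatches. Small intestine holds 19027 reads nearer Gm11062 and 115 nearer 1810030J14Rik, in separate peaks, and colon holds 129 and 233013 and is filled along the second block.

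The exon blocks of 1810030J14Rik differed in their ratios by cDNA fragmentation. In the cDNA fragmented pair the first block, of 118 bases, had 6162 small intestine and 11668 colon reads, a ratio of 1.72 (1.66 to 1.77), whereas the second block, of 680 bases, had 33868 and 273513, a ratio of 7.32 (7.24 to 7.41). After ribosomal RNA depletion the blocks had ratios of 26.8 (16.1 to 48.1) and 54.2 (46.7 to 63.3), whose intervals overlap. The first block is the one in which the copies are 99.2% identical.

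Every exon block of the other genes had a higher RPKM in colon. In 2210415F13Rik the ratio of the 7 blocks ran from 3.64 (3.55 to 3.73) in the fourth to 4.50 (4.28 to 4.73) in the second in the cDNA fragmented pair, and from 4.71 (3.36 to 6.79) to 10.0 (5.60 to 19.7) in the ribosomal RNA-depleted pair. In 1810065E05Rik the 6 blocks ran from 213 (177 to 259) to 370 (282 to 494) in the cDNA fragmented pair. In Hao2 each of the 9 blocks had more reads in colon, with at least 249 reads against at most 10 in the cDNA fragmented pair and at least 31 against at most 4 in the other.

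A search of the mm9 genome with the exon blocks of the other genes found less similar places. For Hao2, taken on its own strand, 5 blocks matched consecutive stretches of the plus strand within chr14:95547720-95548527 at 73.0% to 84.2% identity. For 1810065E05Rik, 66 bases of the first block matched chr11:58426925-58426990 at 89.4% and 103 bases of the fourth matched chr11:58248875-58248976 at 75.7%. For 2210415F13Rik none was found.

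The first exon block was the lowest of each of these genes in colon by cDNA fragmentation. In that protocol the transcript ends were depleted, and the part of this was not tested. In colon after ribosomal RNA depletion the first block was also the lowest for 2210415F13Rik (880 RPKM) and Hao2 (114 RPKM). For 1810065E05Rik it was not (837 RPKM, against 319 RPKM in the second). By cDNA fragmentation the first block of 2210415F13Rik, of 67 bases, was read at 1048 RPKM in colon and the last at 22136 RPKM. The first block of 1810065E05Rik was read at 832 RPKM and its last at 8280 RPKM. Hao2 had another shape, highest at 1094 RPKM in the sixth block and lowest at 129 RPKM in the first, while its ninth block, which is mostly 3′ untranslated sequence and the longest with 846 bases, was read at only 287 RPKM.

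Within this last block of Hao2, reads thinned out before the annotated end. In the colon cDNA fragmented library the first 7 steps of 50 bases were read at 282 to 969 RPKM, the step at bases 401 to 450 at 13.7 RPKM, those from base 451 to 650 at 71.0 to 181 RPKM, and the last steps, from base 701 on, at no more than 2.63 RPKM (2, 1 and 3 reads). In the colon ribosomal RNA-depleted library the first 7 steps had 35 to 68 reads each (201 to 391 RPKM), the step at bases 501 to 550 had 53 reads, and the steps from base 701 on had 10, 2 and 3 reads (57.5, 11.5 and 18.7 RPKM). The annotated end was thus little read in both protocols, and the part of depleted transcript ends in this was not tested.

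**Figure D4:**
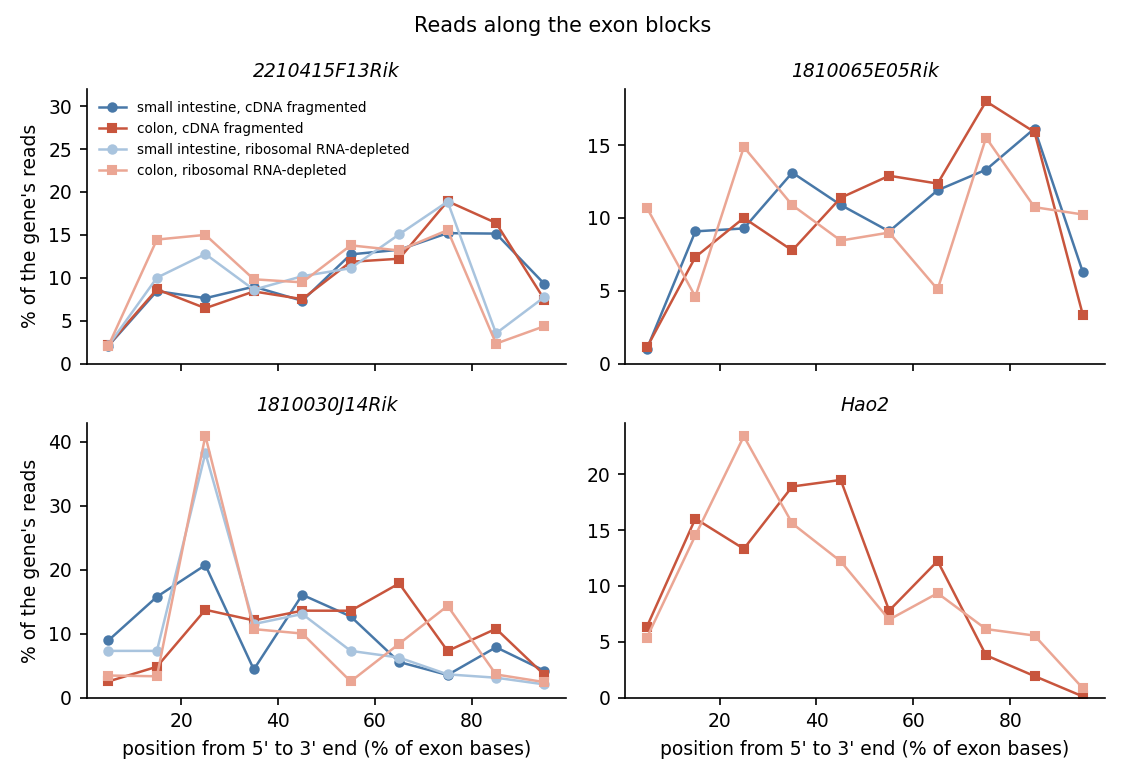
Share of each gene's reads (vertical axes, percent) in 10 equal parts, each 10 percent, of its exon bases from the 5′ to the 3′ end (horizontal axes), for libraries with at least 100 reads on the gene. In colon, the last part of Hao2 holds 0.121% of its cDNA fragmented reads and 0.846% of its ribosomal RNA-depleted reads, and the part of 1810030J14Rik from 20 to 30 percent holds 40.9% of its ribosomal RNA-depleted reads.

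The ribosomal RNA-depleted values rest on fewer places than the cDNA fragmented ones. The 10 fullest start points in colon took from 31.5% of the Hao2 reads to 60.8% of the 1810030J14Rik reads after ribosomal RNA depletion, against 1.61% and 2.37% by cDNA fragmentation, with 2210415F13Rik and 1810065E05Rik in between in both protocols. A single start point held 2385 of the 16995 reads of 1810030J14Rik.

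All reads of the 4 genes in the ribosomal RNA-depleted libraries lay on the annotated strand. A count of 0 on the other strand allows a share of up to 0.0123% for 2210415F13Rik, 0.138% for 1810065E05Rik, 0.0177% for 1810030J14Rik and 0.134% for Hao2 in colon, but up to 33.3% for Hao2 in small intestine. The median gene with at least 20 reads also had 100% on its strand, over 10932 genes in colon, with the 5th percentile at 84.6% in small intestine and 90.4% in colon, and antisense transcripts were not detectable at these genes at this depth. The cDNA fragmented protocol does not mark strand, and there the share on the annotated strand was 44.7% to 56.1% in colon. In small intestine it was 55.6% for 2210415F13Rik, 48.0% for 1810065E05Rik and 48.8% for 1810030J14Rik, and 26.7% (14.2% to 44.4%) for Hao2, or 8 of 30 reads. The medians of all genes were 48.9% and 48.6% in small intestine and colon.

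Of the 4 named genes on the 5′ side of 2210415F13Rik, Irgm2, an interferon-induced GTPase, had 30.6 and 12.2 RPKM in small intestine and colon by cDNA fragmentation, Zfp692 1.14 and 5.75, Zfp672 9.93 and 17.8, and Sh3bp5l 1.31 and 3.32. Beyond 1810065E05Rik, Gm12253 had 11 reads in each cDNA fragmented library, 4930504O13Rik, now named Lypd9, and Olfr30 had none in any library, and Olfr332 had 1 read in colon. None of these passed the 3-fold rule in either pair.

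1810030J14Rik sits among olfactory receptor genes. Olfr421, Olfr420, Olfr419, Olfr417, Olfr248, Olfr414 and Olfr220 had no read in any of the 4 libraries, and Spna1, a spectrin of red cells, had 9 and 16 reads in the cDNA fragmented pair. Hao2 adjoins the Hsd3b genes of steroid synthesis, and there another colon-high gene was found. Hsd3b3 had 168 reads in small intestine and 5676 in colon (4.09 and 125 RPKM), and 18 and 586 reads in the ribosomal RNA-depleted pair (4.84 and 92.3 RPKM), and Hsd3b2 had 7 and 333 reads, and 5 and 48 reads. Both passed the 3-fold rule towards colon in both pairs. Hsd3b6 and Hsd3b1, which lie between them and Hao2, had at most 20 and 5 reads. On the other side Wars2 had 3.58 and 5.22 RPKM, Wdr3 7.64 and 7.16, and Tbx15 and Spag17 at most 4 and 32 reads.

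Over the 4 libraries, the genes most like each member were found by the root mean square difference of log2(RPKM + 1). For 2210415F13Rik these were Guca2a, the gene of guanylin (difference 1.04), Lgals4, a galectin of gut epithelium (1.05), and Zg16, a goblet cell lectin (1.07). For 1810065E05Rik they were Cyp2c55, a cytochrome P450 (1.21), Car2, a carbonic anhydrase (1.28), and Tspan1, a tetraspanin (1.40). For 1810030J14Rik, taken with all its reads, they were Agr2, a disulfide isomerase of mucus-secreting cells (0.96), Guca2a (1.15) and 2210415F13Rik (1.62). Hao2 had the closest match, Aqp8, a water channel of colonocytes (0.52), which had 3 reads in small intestine and 39252 in colon by cDNA fragmentation and 5 and 1916 after ribosomal RNA depletion. Sval1 (0.84) and St6galnac6, a sialyltransferase (0.85), followed. These likenesses are over 4 libraries that share tissues and protocols, and no more than a description.

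Other listed genes of the LY6/PLAUR domain family, cell surface and secreted proteins with a three-finger fold, were of much lower level than 2210415F13Rik. The list does not hold 1810065E05Rik, whose coding sequence aligned with that of 2210415F13Rik at 71.3% identity. Of 31 found, 26 had a read in the cDNA fragmented pair and 6 passed the 3-fold rule towards colon and 0 towards small intestine, and in the ribosomal RNA-depleted pair 23 had a read, with 5 and 0 past the rule. Of all genes, 3.06% passed it towards colon and 2.6% towards small intestine in the first pair, and 6.14% and 3.58% in the second. The median of their log2 ratios (colon over small intestine) was 0.53 and 0.67, beside 0.14 and 0.26 over all genes. Together they summed to 362 and 720 RPKM by cDNA fragmentation, and 137 and 497 RPKM after ribosomal RNA depletion. By reads in colon Ly6e led with 170 and 272 RPKM by cDNA fragmentation and did not pass the rule. Cd177, known from neutrophils, followed with 10.1 and 69.5 RPKM, and with 0.181 (1 read) and 76.4 RPKM after ribosomal RNA depletion. Ly6a, a marker of stem and activated cells, had 36.2 and 177 RPKM and 11.9 and 91.0 RPKM, and passed the rule in both pairs as Cd177 did. Cd59a, an inhibitor of complement, had 37.5 and 50.9 RPKM.

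The other enzymes of peroxisomal oxidation had a median ratio on the side of small intestine. Of 30 found, 0 passed the 3-fold rule towards colon in either pair, where 3.06% and 6.14% of all genes did, so that a count of 0 in so short a list is not a result about it. Towards small intestine 4 and 6 passed it, beside 2.6% and 3.58% of all genes. The median log2 ratio was -0.37 in the cDNA fragmented pair and -0.84 in the ribosomal RNA-depleted pair, beside 0.14 and 0.26 over all genes. Scp2, a thiolase and lipid carrier, was read at 601 RPKM in the small intestine and at 225 in the colon by cDNA fragmentation, Abcd3, a transporter of the peroxisomal membrane, at 97.6 and 79.1, and Phyh, of phytanic acid oxidation, at 244 and 180. Hao1, the paralog of Hao2 that oxidises glycolate in liver, had 2 and 7 reads in the cDNA fragmented pair and 0 in both ribosomal RNA-depleted libraries.

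Among 1182 condensed genes whose names end in Rik, the 3 clone-named genes were the 3 highest in the colon cDNA fragmented library. They were chosen for level or colon bias in the cDNA fragmented pair, so this place describes the choice. The next were 2010107E04Rik, read at 662 RPKM in the small intestine and 1012 in the colon, and 2200002D01Rik, at 366 and 727. Neither passed the 3-fold rule. In the group as a whole, 32 of the 994 with a read passed it towards colon and 19 towards small intestine, and 35 and 24 of 893 did so in the ribosomal RNA-depleted pair. These counts include the 3 clone-named genes, and the shares of all genes are 3.06% and 2.6% in the first pair and 6.14% and 3.58% in the second.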

How the data were processed

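The authors deposited placements of single SOLiD reads (reference, strand, position and number of mismatches), which are neither counts nor normalized values, with tables of RefSeq exons and exon-exon junctions in mm9. Per the deposited reports, 35 colors per read were matched with up to 3 mismatches and only uniquely placed reads were kept. The reports name the corona pipeline, whose version is not given in the sources used here. The cDNA fragmented libraries had 77504263 (small intestine) and 83302412 (colon) reads, of which 22484041 and 24798934 were uniquely placed, and the libraries after ribosomal RNA depletion had 36419942 and 37466674, of which 2035386 and 3478387 were.

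Reads were counted on exon blocks with 3 bases of tolerance, blocks joined by junctions were condensed to genes named after GENCODE M1 of the same build, and RPKM was calculated over uniquely placed reads. Intervals were exact Poisson for levels, exact conditional binomial for ratios and Wilson for shares, and where a library had 0 reads, 3 were taken as the limit. Genomic matches were searched with BLAST 2.17.0 and alignments made with Biopython 1.88. Reads of 1810030J14Rik were rebuilt in color space, where the number of mismatches equalled the deposited one for at least 99.6% of cDNA fragmented reads.

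The genes and lists were chosen with earlier results of these data known. Named were the 4 genes, the 3 most alike in level to each, the 4 nearest on each side, the 4 with most colon reads of each functional list, and the 5 highest clone names. A gene that this rule names among the peroxisomal enzymes is not reported here. In simulated data over 20906 genes, 200 well-read genes were changed 8-fold. Of these, 195 were recovered in the cDNA fragmented pair, with 0 unchanged genes called, and 200 in the ribosomal RNA-depleted pair, with 25. Counts were drawn with counting error alone, and the change was far above the 3-fold rule. The simulation thus gives no rate of false or missed calls for the real libraries.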

Additional observations from a re-analysis of the deposited data

How the results depend on the processing

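The labels hold no replicate numbers to pair, and each tissue and protocol has 1 library, so no library was left out. A fit of tissue with protocol as a block, which leaves 1 residual degree of freedom, was not run. Counting error is the only error that can be given. Depth limits the small intestine values of Hao2 (30 and 9 reads) and 1810065E05Rik (21 reads after ribosomal RNA depletion). Adding junction reads kept all 8 ratios within their intervals, as did keeping reads with at most 1 mismatch for 6 of 8. For 1810030J14Rik the latter gave ratios of 10.5 (cDNA fragmented) and 92.5 (ribosomal RNA-depleted), reads nearer it than Gm11062 gave 1837 and 111, and leaving out only reads nearer Gm11062 gave 12.3 and 69.5, both chosen after seeing the data.

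Size factors from the median of ratios gave 3.40 for 2210415F13Rik, 216 for 1810065E05Rik and 5.12 for 1810030J14Rik in the cDNA fragmented pair, and 5.13 for 2210415F13Rik and 44.2 for 1810030J14Rik in the other. Start points in place of reads gave 0.966, 3.50, 1.56 and 86.5 for 2210415F13Rik, 1810065E05Rik, 1810030J14Rik and Hao2 in the cDNA fragmented pair, so that 2210415F13Rik changed direction, and 1.12, 12.0, 3.89 and 57.5 in the other. Start points are capped by gene length: 2210415F13Rik has 870 start positions per strand inside its blocks, not counting the tolerance at exon borders, and showed 1782 start points in small intestine and 1802 in colon. A penalty of 0.1 RPKM raised the genes past the 3-fold rule to 1386 towards colon and 699 towards small intestine in the cDNA fragmented pair, and to 2602 and 1230 in the other.

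Per start position with a unique place among exons, in the order small intestine and colon by cDNA fragmentation, then small intestine and colon after ribosomal RNA depletion, the level of 2210415F13Rik was 4814, 20671, 1316 and 7903 RPKM. That of 1810065E05Rik was 29.7 and 8151 by cDNA fragmentation and 854 in depleted colon, that of 1810030J14Rik was 2424, 15725 and 6680 in the same libraries, and Hao2 had 718 and 364 in the colon libraries. All 16 levels rose by a factor of 1.09 to 1.26. Every start position was unique, so the rise comes from dividing by start positions in place of the larger number of exon bases. With 1 read per start point, the share of cDNA fragmented reads on the annotated strand was 49.9% in both tissues for 2210415F13Rik, and in colon 48.8% for 1810065E05Rik, 49.5% for 1810030J14Rik and 48.3% for Hao2.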

Other observations

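Reads across exon-exon junctions were few for these genes, with 2099 reads for 2210415F13Rik, 1425 for 1810065E05Rik, 33 for 1810030J14Rik and 93 for Hao2 in the colon cDNA fragmented library, against 516, 6, 10 and 0 in small intestine. In 1810065E05Rik 581 colon reads joined block 2 to block 3, 490 block 1 to 2, and 238 block 1 to 3. In 2210415F13Rik 475 colon reads joined block 5 to block 7, 420 block 1 to 7, 403 block 3 to 5, and 278 block 4 to 5, while neighbouring blocks 5 and 6 were joined by 4. A junction read can rest on as few as 7 bases on one side, so these counts are placements and are not read as isoforms.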
